A study of Mus musculus with 18 samples.

Results

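The genes described here are the matrix proteases and their inhibitors: the matrix metalloproteinases (Mmp), the tissue inhibitors of metalloproteinases (Timp), and the Adamts and Adam proteases. They were chosen by mouse gene symbol alone, as every protein-coding gene named Mmp, Timp, Adamts or Adam followed by a number. This gave 78 of the 51435 genes in the count table, made up of 22 Mmp, 4 Timp, 19 Adamts and 33 Adam genes. The rule uses no measured value.

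Left ventricles of 18 male C57BL/6J littermates, 9 WT and 9 WWP2Mut/Mut, were used for poly(A) RNA-seq. In the WWP2Mut/Mut mice 4 bases of Wwp2 exon 2 are missing in the germline, a frameshift intended to disrupt the full-length and N-terminal isoforms of this E3 ubiquitin ligase but not the C-terminal isoform. Mice of both genotypes had received angiotensin II (AngII) from a minipump at 500 ng/kg/min for 28 days from 8 weeks of age, so every value below is from an AngII-treated heart, and libraries of untreated mice were not analysed here. The question that the genotype comparison addresses is whether loss of these WWP2 isoforms changes matrix gene expression in the pressure-loaded ventricle.

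Matrix metalloproteinases are zinc enzymes that cut collagens and other matrix proteins, and the TIMPs bind and block their active sites. The Adamts enzymes are secreted proteases that trim procollagen or cut large proteoglycans, and many Adam proteins sit in the cell membrane and release growth factors, cytokines and receptors from it. In the heart these enzymes are made by several cell types, among them fibroblasts, endothelial cells and leukocytes. Their balance with the TIMPs is a textbook feature of ventricular remodelling.

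The active site of these proteases is a stretch of coding sequence with 3 histidine codons that hold the zinc ion. A search of the longest coding sequence of each gene (GENCODE M21, GRCm38) for this zinc-binding motif, in frame, found it with a glycine codon at position 8 in 55 of the 78 genes. It was found with any codon there in 61. Among 21712 protein-coding genes with a coding sequence, 68 (0.313%) and 96 (0.442%) held these forms. All 22 Mmp and all 19 Adamts genes held the site, as did 20 of 33 Adam genes. None of the 4 Timp genes and none of the neural Adam genes Adam11, Adam22 and Adam23, which act in cell adhesion, held it. Of the 20 proteases that averaged at least 1 TPM in these hearts, 19 held the site, and the exception was Adam11. The stretches of the genes that the results below turn on are shown 5′ to 3′ on the coding strand, with the codons of the motif in capitals:

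Mmp2 (chr8:92839279-92839311, plus strand, exon 8): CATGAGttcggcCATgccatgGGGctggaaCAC

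Mmp14 (chr14:54437627-54437659, plus strand, exon 5): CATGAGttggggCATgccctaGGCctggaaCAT

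Mmp15 (chr8:95368585-95368617, plus strand, exon 5): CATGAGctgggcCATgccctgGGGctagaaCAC

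Mmp11 (chr10:75926931-75926963, minus strand, exon 5): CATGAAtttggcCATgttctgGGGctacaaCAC

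Adam15 (chr3:89344780-89344812, minus strand, exon 11): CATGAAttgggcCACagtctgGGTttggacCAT

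Adam9 (chr8:24990326-24990358, minus strand, exon 11): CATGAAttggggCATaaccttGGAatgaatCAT

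Adam10 (chr9:70754296-70761585, plus strand, exons 9 and 10): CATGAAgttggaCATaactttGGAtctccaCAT

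Adam17 (chr12:21336732-21336764, minus strand, exon 12): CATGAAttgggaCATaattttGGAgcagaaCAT

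Adamts2 (chr11:50775403-50776134, plus strand, exons 7 and 8): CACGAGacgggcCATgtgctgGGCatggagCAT

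Adamts1 (chr16:85799191-85799545, minus strand, exons 3 and 4): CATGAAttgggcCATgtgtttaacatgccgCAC

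Adam1a (chr5:121520089-121520121, minus strand, exon 1): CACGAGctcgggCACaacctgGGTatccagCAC

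Adam1b (chr5:121501937-121501969, minus strand, exon 1): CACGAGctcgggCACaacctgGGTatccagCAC

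The 33 bases of Mmp14 and Mmp15 shared 27, and those of Adam10 and Adam17 shared 26. In 6 of the 7 Adamts genes grouped here as proteoglycan-cleaving (Adamts1, Adamts4, Adamts8, Adamts9, Adamts15 and Adamts20) codon 8 of the stretch was AAC, AAT or AGC in place of a glycine codon, whereas Adamts5 kept glycine. The stretches of Adam1a and Adam1b were equal in all 33 bases. Identity of these neighbouring genes beyond the stretch was not examined. Whether reads were divided between them is therefore not known, and their values are uncertain. Where the coordinates name 2 exons, an intron interrupts the stretch.

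The genes also cluster on the chromosomes. Of the 22 Mmp genes, 9 lie within chr9:7272514-7699585, and of the 33 Adam genes 13 lie on chromosome 8. A RefSeq promoter window (GRCm38.p6, 250 bases before to 50 after the transcription start) was matched for 48 of the 78 genes. The AP-1 word TGACTCA, searched on both strands, together with the TATA word TATAAA on the gene's strand stood in windows of 7 of these 48 genes and in 205 of 32851 windows of all genes (0.624%). Of the 9 genes of the chromosome 9 cluster, 6 held both words (Mmp13, Mmp12, Mmp1b, Mmp3, Mmp10 and Mmp7), and 3 of these 6 had 0 counts in every heart. The windows of the other 3 are shown from 100 bases before to 15 after the start, because the genotype comparison below returns to Mmp12 and Mmp13, with the words in capitals. For Mmp12 the window is that of a later RefSeq start, and its TATA word begins 4 bases after that start:

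Mmp13 (chr9:7272414-7272528, plus strand): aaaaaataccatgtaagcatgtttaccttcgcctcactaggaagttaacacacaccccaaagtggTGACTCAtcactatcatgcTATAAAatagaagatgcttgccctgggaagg

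Mmp12 (chr9:7347274-7347388, plus strand): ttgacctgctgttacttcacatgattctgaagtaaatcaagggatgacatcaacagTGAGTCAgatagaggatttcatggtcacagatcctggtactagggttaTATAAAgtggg

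Mmp3 (chr9:7445722-7445836, plus strand): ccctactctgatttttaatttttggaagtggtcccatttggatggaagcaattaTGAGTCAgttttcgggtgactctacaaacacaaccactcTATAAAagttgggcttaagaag

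Mmp11, also described in the genotype comparison, held neither word in its window, and Adam19 held the AP-1 word but not the TATA word. A word match describes these letters only, and binding of a factor was not measured.

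Libraries held between 24566994 and 37451087 expected counts. Cardiomyocyte markers were high in every heart (5 genes, summed 18046 to 25561 TPM), as the tissue label requires. Wwp2 was 5.09 ± 0.600 TPM (SD, n = 9) in WT and 1.72 ± 0.528 TPM (SD, n = 9) in WWP2Mut/Mut hearts, with no overlap. One library, WT 43-3, is listed with an RNA concentration of 1.68 ng/µl against 88.6 to 320.9 in the others, and concentrations were higher in WWP2Mut/Mut (median 187.4) than in WT samples (median 98.3, exact permutation p = 0.0422). Liver genes ranged from 0.21 to 203 TPM summed over 5 genes in WT and from 0.72 to 35.3 in WWP2Mut/Mut hearts, and atrial genes from 379 to 1108 and from 318 to 1181. Whether these libraries affect the protease values was tested only through the alternatives given in the closing section. Replicates are separate mice, and no same-genotype libraries were alike within sampling noise.

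The protease and inhibitor transcripts of the AngII-treated ventricle were dominated by a few genes. In TPM, a unit that corrects for transcript length and so allows genes to be compared, 24 of the 78 genes averaged at least 1 TPM over the 18 mice. A further 19 lay between 0.1 and 1 TPM and 35 below 0.1. The 6 highest, Adam15, Timp3, Mmp2, Timp2, Mmp15 and Timp4, carried 64.4% of the summed TPM of all 78. By family, the Timp genes carried 31.2%, the Adam genes 31.03%, the Mmp genes 25.3% and the Adamts genes 12.5%. Adam15, which is known from endothelial and smooth muscle cells, was the highest gene in 11 mice, Timp3 in 6 and Timp2 in 1. The leading places are therefore not fixed, whereas Timp2 was above Mmp15 in all 18 mice.

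**Figure D1:**
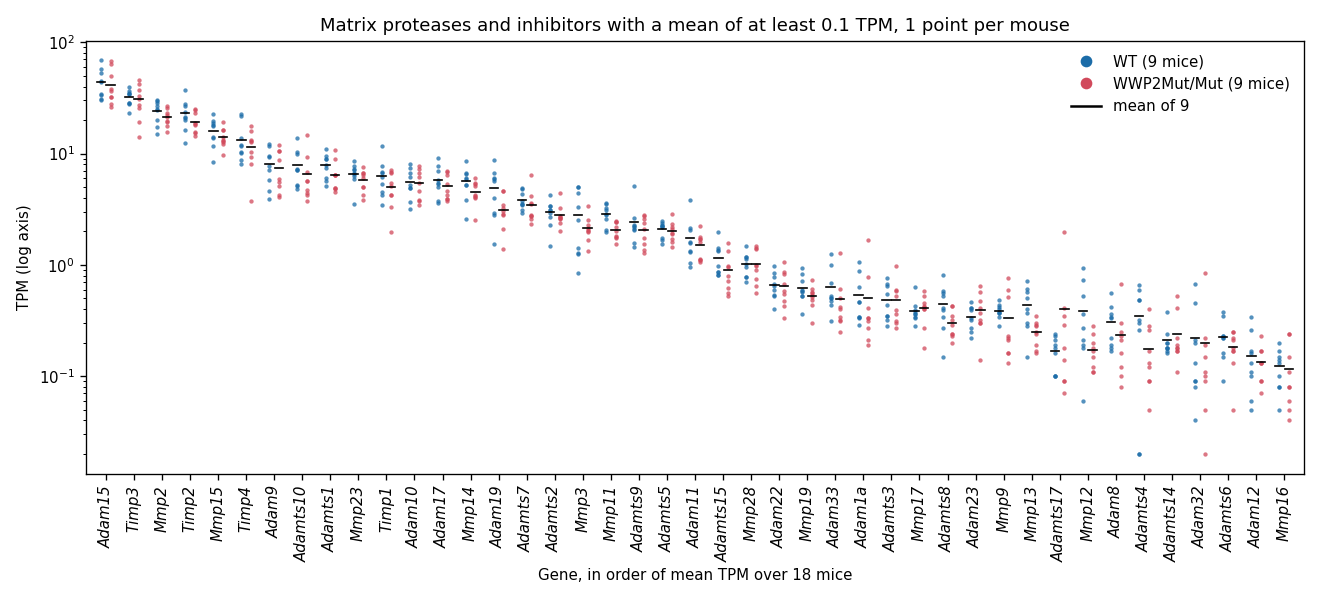
TPM of the 43 genes that averaged at least 0.1 TPM, on a log axis, in order of their mean over 18 mice. Each point is 1 mouse (blue WT, red WWP2Mut/Mut) and each black bar the mean of 9. Levels spanned from above 40 TPM for Adam15 to near 0.1 TPM for Mmp16, and in every gene the points of the genotypes overlapped.

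The inhibitors were all expressed. Timp3, the inhibitor that is bound to the matrix, ranged from 23.3 to 39.7 TPM in WT hearts (median 34.0) and from 14.2 to 46.1 in WWP2Mut/Mut hearts (median 31). Timp2, which also takes part in the activation of pro-MMP2, ranged from 12.5 to 36.99 TPM (median 21.5) and from 14.4 to 25 (median 18.5). Timp4, the cardiac member of the family, ranged from 8.10 to 22.9 TPM (median 11.8) and from 3.78 to 17.6 (median 12.6). For all 3 genes the ranges of the genotypes overlapped widely. Timp1, the inducible and injury-responsive inhibitor, was the lowest of the 4, at 3.46 to 11.7 TPM in WT (median 6.18) and 1.97 to 7.09 in WWP2Mut/Mut hearts (median 5.10). Timp3 was above Timp4 in all 18 mice and Timp4 above Timp1 in 16, so the order Timp3, Timp4, Timp1 held in most mice, while Timp3 and Mmp2, next to each other in level, changed places in 4.

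In counts, tested for genotype with edgeR's quasi-likelihood test with RNA concentration and lane as covariates, none of the 4 inhibitors differed. The log2 fold changes (WWP2Mut/Mut against WT) were -0.20 ± 0.196 (SE) for Timp3, -0.14 ± 0.111 for Timp2, -0.06 ± 0.249 for Timp4 and -0.04 ± 0.241 for Timp1. The 95% interval of the tightest, Timp2, ran from -0.38 to 0.09. The summed Timp TPM was 74.3 ± 13.1 (SD, n = 9) in WT and 66.5 ± 15.8 (SD, n = 9) in WWP2Mut/Mut hearts. The ratio of summed Timp to summed Mmp TPM was 1.24 ± 0.281 and 1.26 ± 0.298, a difference far within the spread between mice.

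Across all families the genotype comparison gave no called gene. Counts allowed a test for 61 of the 78 genes (more than 1 count in total over the 18 libraries), and 17 were not tested, of which 15 had 0 counts in every mouse. None of the 61 passed a false discovery rate (FDR) of 0.05 over the 24804 genes tested, where Wwp2 was the only call (0.00403% of genes). DESeq2 also called 0 of the 61, and by each tool 1 of them had an unadjusted p below 0.05. That share is no larger than among all genes, of which 2.57% were lower and 1.09% higher in WWP2Mut/Mut hearts at an unadjusted p below 0.05. The log2 fold change was negative for 41 of the 61 genes (67.2%), against 51.9% of all genes tested. By family it was negative in 13 of 17 Mmp, 4 of 4 Timp, 13 of 19 Adamts and 11 of 21 Adam genes. The Timp directions were not stable, since Timp3 and Timp4 were at 0.04 without covariates, and leaving out single mice took Timp1 to 0.06 and Timp4 to 0.12. The median log2 fold change was -0.08 over the 61 genes and -0.01 over all genes, and the number of negative values moved between 31 and 49 as single mice were left out (without WWP2Mut/Mut 53-1 and without WWP2Mut/Mut 52-1). In no gene did the TPM ranges of the 2 genotypes separate.

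Precision was good for the expressed genes. The 24 genes at 1 TPM or more had log2 fold changes between -0.31 and 0.04, and all 24 intervals lay between -0.81 and 0.61. A doubling or halving of any of these transcripts thus lay outside the 95% intervals. Precision varied between them, from an interval of -0.28 to 0.18 for Adamts5 to one of -0.72 to 0.61 for Adamts10.

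**Figure D2:**
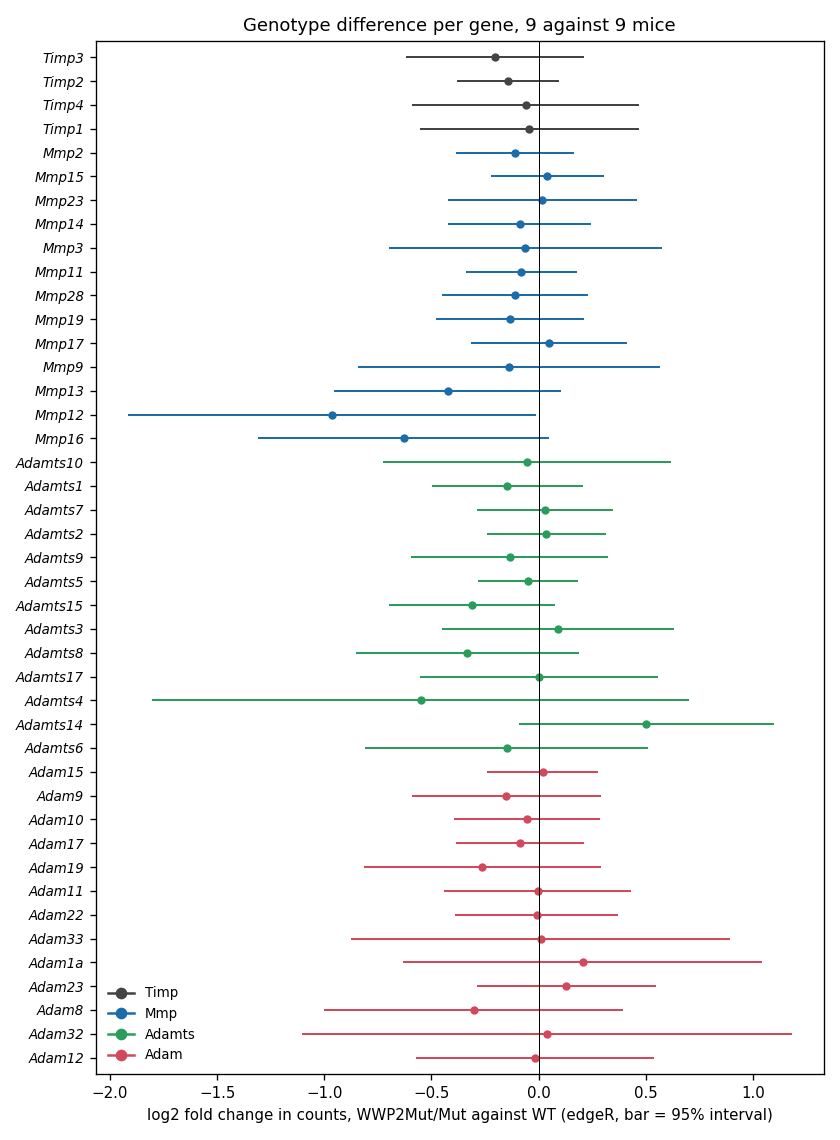
Log2 fold change of counts in WWP2Mut/Mut against WT hearts for genes averaging at least 0.1 TPM (points), with 95% intervals (bars), from edgeR with lane and RNA concentration as covariates and 9 mice per genotype. The interval of Mmp12 alone excludes 0 (-1.91 to -0.02), before any adjustment over genes.

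Among the gelatinases, Mmp2, the constitutive gelatinase of fibroblasts, was the highest Mmp gene. It ranged from 15.1 to 30.2 TPM in WT hearts (median 25.3) and from 15.6 to 26.5 in WWP2Mut/Mut hearts (median 21.3), with a log2 fold change of -0.11 ± 0.130 (SE). Mmp9, the gelatinase of neutrophils and macrophages, was near 0.4 TPM, at 0.387 ± 0.0581 (SD, n = 9) in WT and 0.330 ± 0.229 (SD, n = 9) in WWP2Mut/Mut hearts. The spread of Mmp9 was wider in the WWP2Mut/Mut hearts, and that difference in spread was not tested. The 5 neutrophil markers summed to 2.55 to 15.4 TPM in WT and 3.06 to 31.9 in WWP2Mut/Mut hearts, and their part in the Mmp9 values was not tested beyond the correlation given below.

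The collagenases were scarce. Mmp13, the main interstitial collagenase of the mouse, ranged from 0.15 to 0.72 TPM in WT (median 0.40) and from 0.16 to 0.35 in WWP2Mut/Mut hearts (median 0.25). Mmp8, of neutrophils, had at most 8 counts in a library, and Mmp1b had 0 counts in all, which allows at most 0.0801 to 0.122 CPM per library (3 counts, counting error only, where CPM is counts scaled to library size).

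Of the stromelysins, Mmp3, a broad matrix protease, ranged from 0.84 to 5.03 TPM in WT hearts (median 2.51) and from 1.32 to 3.37 in WWP2Mut/Mut hearts (median 2.07). Mmp11, a furin-activated stromelysin of stromal cells, ranged from 1.99 to 3.61 TPM (median 2.84) and from 1.55 to 2.5 (median 2.01). Mmp10 had 0 counts in every mouse. The WT values of Mmp3 spread over the whole WWP2Mut/Mut range on both sides.

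The membrane-type enzymes were led by Mmp15, anchored in the plasma membrane, at 8.31 to 22.6 TPM in WT (median 17.7) and 9.69 to 19.3 in WWP2Mut/Mut hearts (median 13.3). Mmp14, the membrane activator of pro-MMP2, ranged from 2.57 to 8.57 TPM (median 5.96) and from 2.55 to 5.97 (median 4.27). Their log2 fold changes were 0.04 ± 0.123 and -0.09 ± 0.157 (SE). Mmp15 was above Mmp14, and Mmp2 above Mmp14, in all 18 mice. Mmp16, another membrane-type enzyme, had only 5 to 31 counts per library and a log2 fold change of -0.63 ± 0.321 (SE). Its unadjusted p was 0.0656 in the edgeR fit across all genes and 0.883 by exact permutation of TPM. The remaining Mmp genes were led by Mmp23, whose role in the heart is little described, at 6.61 ± 1.40 TPM (SD, n = 9) in WT and 5.73 ± 1.27 TPM (SD, n = 9) in WWP2Mut/Mut hearts.

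The single protease with an unadjusted edgeR p below 0.05 was Mmp12, the elastase of macrophages. It ranged from 0.06 to 0.93 TPM in WT hearts (median 0.27) and from 0.11 to 0.28 in WWP2Mut/Mut hearts (median 0.17), on 4 to 74 counts per library. Of the WT hearts only 16-1 (0.06) lay below the WWP2Mut/Mut range, 4 lay within it (0.18 to 0.27) and 4 above it (0.36 to 0.93). The log2 fold change was -0.97 ± 0.451 (SE). The edgeR p was 0.0460 unadjusted and 1.0 adjusted over all genes, against 0.0396 by exact permutation of TPM. The unadjusted edgeR p lay between 0.00633 and 0.145 as each mouse was left out, below 0.05 in 6 of 18 fits. The 5 leukocyte markers did not separate the genotypes either, at 16.1 to 27.3 TPM summed in WT and 14.7 to 27.4 in WWP2Mut/Mut hearts. In whole ventricle, fewer cells of a type and less RNA per cell cannot be told apart, here and in every gene above and below.

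The remaining genes with small p were, after Mmp12 and Mmp16, Adam1b, Adamts14, Adamts15 and Mmp13, with unadjusted p from 0.0712 to 0.107 (edgeR). Adam1b had at most 2 counts in a library, and its fold change has no useful precision. Adamts14, a procollagen N-propeptidase, had the only positive difference among the 6, at 0.50 ± 0.282 (SE) on the log2 scale of counts. Its TPM was nevertheless close in the genotypes, at 0.210 ± 0.0678 (SD, n = 9) in WT and 0.239 ± 0.134 (SD, n = 9) in WWP2Mut/Mut hearts.

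Tested on TPM without covariates by two-sided exact permutation over the 48620 divisions of the mice, 4 of the 61 genes gave an unadjusted p below 0.05: Mmp11 (p = 0.00366), Mmp13 (p = 0.0106), Mmp12 (p = 0.0396) and Adam19 (p = 0.0451). All 4 were lower in WWP2Mut/Mut hearts, against 4.12% of 24763 genes that were lower and 0.319% that were higher by the same test. With TPM rescaled to the same total in every mouse, Adam19 no longer passed (exact permutation p = 0.0618). This left 3 of 61, all lower, against 2.6% of all genes that were lower and 0.505% that were higher. Adam19, a sheddase of neuregulins, ranged from 1.54 to 8.68 TPM in WT (median 5.70) and from 1.38 to 4.61 in WWP2Mut/Mut hearts (median 3.07). None of the 4 was called from counts, where the log2 fold changes with covariates were -0.08 ± 0.122 (SE) for Mmp11, -0.42 ± 0.25 for Mmp13 and -0.26 ± 0.261 for Adam19. Without covariates the same edgeR fit gave -0.07 for Mmp11, -0.63 for Mmp13 and -0.45 for Adam19, with unadjusted p of 0.502, 0.00930 and 0.0531. For Mmp12 it gave -1.19, with an unadjusted p of 0.00637. The fold changes of Mmp13 and Adam19 thus moved with the covariates, and that of Mmp11 did not.

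The scale of TPM against counts also varied between mice. The log2 ratio of TPM to CPM, whose median over genes with more than 20 counts in every library was taken per mouse, was -1.70 ± 0.115 (SD, n = 9) in WT and -1.79 ± 0.0651 (SD, n = 9) in WWP2Mut/Mut hearts, a difference of -0.09 that did not pass 0.05 (exact permutation p = 0.0619). Over the 18 mice this ratio correlated at r = -0.82 with the gene body coverage fraction described below. In Mmp11 the same ratio differed by -0.35, since its mean TPM was lower by 0.48 but its mean CPM by only 0.12 on the log2 scale. In Mmp13 and Adam19 it differed by -0.07 and -0.08, close to the median over all genes, and their mean CPM was lower by 0.70 and 0.53.

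**Figure D3:**
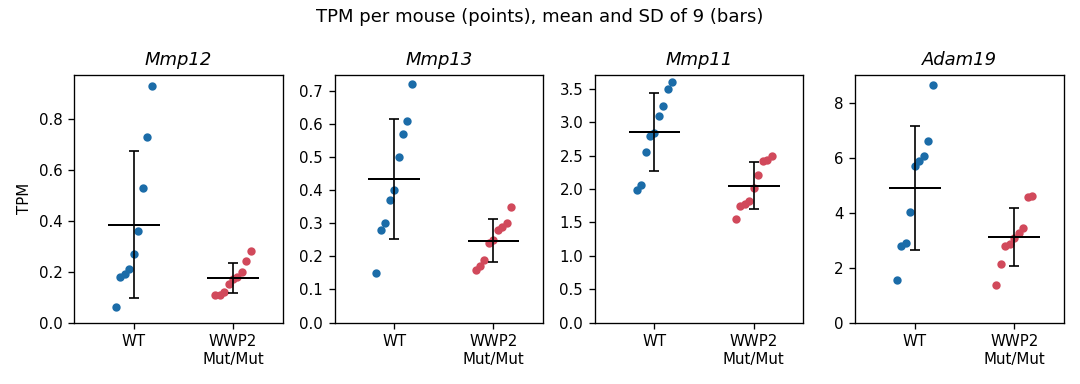
TPM of Mmp12, Mmp13, Mmp11 and Adam19 in each of 9 WT (blue) and 9 WWP2Mut/Mut (red) hearts, with mean and SD as black bars and a linear axis from 0 in each panel. The 4 genes are shown because their TPM gave an exact permutation p below 0.05, and in all 4 the WT values are the more spread and overlap those of WWP2Mut/Mut hearts.

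All 19 Adamts genes passed the count filter, although 6 averaged below 0.1 TPM and Adamts13, Adamts16 and Adamts18 had 3, 6 and 11 counts in all libraries together. Adamts2, which removes the N-propeptide of procollagen I, led its group at 1.47 to 4.27 TPM in WT (median 3.08) and 2.03 to 4.45 in WWP2Mut/Mut hearts (median 2.64). Among the proteoglycan-cleaving members Adamts1, which cuts versican and aggrecan, led with 5.15 to 10.9 TPM (median 7.89) and 4.54 to 10.7 (median 6.35). Adamts10, which binds fibrillin microfibrils, ranged from 4.78 to 13.9 TPM (median 7.15) and from 3.76 to 14.7 (median 5.64). In these 3 genes the ranges of the genotypes were nearly the same. Their log2 fold changes were 0.04 ± 0.130, -0.15 ± 0.165 and -0.05 ± 0.318 (SE), and Adamts7, a protease of cartilage oligomeric matrix protein, gave 0.03 ± 0.149. Adamts15, a versican-cleaving member, ranged from 0.81 to 1.97 TPM in WT (median 0.97) and from 0.53 to 1.57 in WWP2Mut/Mut hearts (median 0.79), with a log2 fold change of -0.31 ± 0.182 (SE). Its unadjusted p was 0.103 in the edgeR fit and 0.154 by exact permutation of TPM. All 7 proteoglycan-cleaving genes had negative log2 fold changes (-0.55 to -0.05, median -0.31) and all 3 procollagen N-propeptidases positive ones (0.04 to 0.50), with none at an unadjusted p below 0.05. These directions were not all stable, since leaving out single mice took Adamts9 to 0.09, Adamts2 to -0.07 and Adamts3 to -0.04, and other settings took Adamts5 to 0.08, Adamts2 to -0.13 and Adamts3 to -0.33.

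The Adam family held a few well expressed sheddases and many germline genes with few or no counts. Adam15 ranged from 30.4 to 68.8 TPM in WT (median 44.4) and from 26.4 to 67.5 in WWP2Mut/Mut hearts (median 36.5). Adam9, a metalloprotease-disintegrin, ranged from 3.88 to 12.1 TPM (median 7.78) and from 4.09 to 11.9 (median 5.86). Adam10, the main Notch sheddase, and Adam17, which releases TNF and the ligands of the EGF receptor, were at like levels. Adam10 was 5.58 ± 1.65 TPM (SD, n = 9) in WT and 5.42 ± 1.6 TPM in WWP2Mut/Mut hearts, and Adam17 was 5.84 ± 1.81 and 5.11 ± 1.34 TPM. Adam10 was above Adam17 in 10 of 18 mice, so these neighbours do not differ in level beyond their spread. For the 4 genes the log2 fold changes were 0.02 ± 0.122, -0.15 ± 0.207, -0.05 ± 0.160 and -0.09 ± 0.140 (SE). Adam11, the highest neural member, ranged from 0.95 to 3.81 TPM in WT and from 1.05 to 2.25 in WWP2Mut/Mut hearts, with a log2 fold change of -0.01 ± 0.207.

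Of the 21 germline Adam genes, which act in sperm and fertilization, 19 averaged below 0.1 TPM and 10 had 0 counts in every mouse. Adam1a, Adam32, Adam4 and Adam5 had counts in all 18. The 5 testis markers summed to at most 0.08 TPM in any heart. The highest of the group was Adam1a, at 0.29 to 1.05 TPM in WT (median 0.46) and 0.19 to 1.66 in WWP2Mut/Mut hearts (median 0.33), on 27 to 216 counts per library. On chromosome 8, Adam9 (7.68 TPM over all mice) is the only Adam gene of the 13 that reached 1 TPM. The 4 Adam genes of chr8:40675077-40827037 and the 3 of chr8:43519762-43710049 had 0 counts throughout.

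The genes also varied from mouse to mouse within a genotype, and part of that variation was shared. For each library the authors list a gene body coverage fraction whose name refers to the lower part of the gene body. It ran from 0.0288 to 0.054 in WT and from 0.0313 to 0.0526 in WWP2Mut/Mut libraries (exact permutation p = 0.720), and its definition is not given in the sources used here. In an edgeR fit with genotype, lane and RNA concentration as the other terms, chosen after the data were seen, 7 of the 61 tested genes were higher and 7 lower with this fraction at an FDR of 0.05. Among all genes 14.8% were higher and 16.1% lower, so the proteases as a set did not stand above the background. Individual members nevertheless followed it closely. Per SD of the fraction, Adam9 counts fell by 0.40, Adam10 by 0.25 and Adam17 by 0.23 on the log2 scale, while Adamts10 rose by 0.63, Mmp23 by 0.38 and Adam15 by 0.18. Adam1a, Adam33, Adamts14 and Adamts7 also rose, and Mmp14, Mmp15, Adamts4 and Adamts12 also fell. The call was kept in all 18 fits that left out a mouse for Adam9, Adam10, Adam17, Adam15, Adamts10, Mmp23, Adam1a, Adam33, Adamts4 and Adamts12, and in 16 for Mmp15, 12 for Mmp14, 9 for Adamts14 and 7 for Adamts7.

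**Figure D4:**
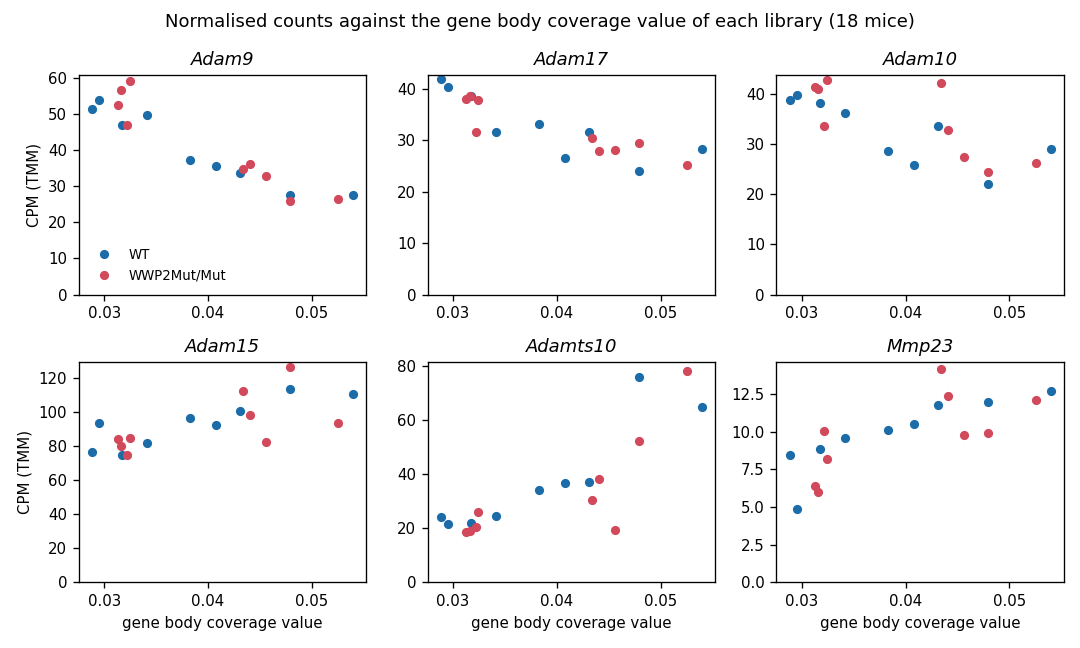
TMM-normalised CPM (vertical axes, from 0) of Adam9, Adam17, Adam10, Adam15, Adamts10 and Mmp23 against the gene body coverage fraction of each library (horizontal axes, no unit), 1 point per mouse, blue WT and red WWP2Mut/Mut. The upper row falls with the fraction and Adam15, Adamts10 and Mmp23 rise, with mice of both genotypes along each trend.

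The 7 transcripts that rose with the fraction had a GC content of 49.9% to 60.3% (median 58.6%), and the 7 that fell 42.1% to 59.6% (median 46.8%). Among all protein-coding genes tested, the medians were 54.6% for those that rose and 47.3% for those that fell. The lengths of the risen (1434 to 5379 bases, median 3496) and the fallen transcripts (2596 to 8579 bases, median 4469) overlapped. Among all protein-coding genes tested, those that rose had a median length of 1768 bases (interquartile range 1124 to 2868) and those that fell one of 4082 (2920 to 5695). Whether RNA quality produced these differences was not tested.

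Fixed pairs of genes that act together were correlated across the 18 mice on log2(TPM + 1). There were 9 pairs, and p-values came from permutation tests with Benjamini-Hochberg adjustment over the 9. Adamts2 and its substrate gene Col1a1 moved together most closely (r = 0.96, adjusted p = 9.00e-05, the value that follows from the smallest p the 100000 permutations can give, and rho = 0.94), with r = 0.97 in WT and 0.98 in WWP2Mut/Mut mice. Leaving out the 2 mice farthest from the median of Adamts2 gave r = 0.94. On TMM-normalised log2 CPM the pair gave a lower value (r = 0.88, permutation test, adjusted p = 0.000180).

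The pro-MMP2 activation complex is formed by MMP14, TIMP2 and pro-MMP2 at the cell surface. Mmp14 and Timp2 correlated at r = 0.78 (rho = 0.75, permutation test, adjusted p = 0.000540 for r), and at 0.80 without the 2 farthest mice. On TMM-normalised log2 CPM this pair gave a lower value (r = 0.56, permutation test, adjusted p = 0.0244). Mmp2 and Mmp14 gave r = 0.53 (rho = 0.59, permutation test, adjusted p = 0.0377 for r). Without WT 16-1 and WWP2Mut/Mut 33-1, the mice farthest from the median of Mmp2, it was r = 0.46 (unadjusted permutation p = 0.0731). Leaving these mice out narrows the range of Mmp2, so it cannot show whether the call depends on them. With any 1 mouse left out r lay between 0.39 and 0.61. Mmp2 and Timp2 gave r = 0.47, which did not pass the adjustment (rho = 0.43, permutation test, adjusted p = 0.0667 for r), but passed on TMM-normalised log2 CPM (r = 0.65, permutation test, adjusted p = 0.0101). Within genotypes Mmp14 and Timp2 gave r = 0.94 in WT and 0.38 in WWP2Mut/Mut mice, and Mmp2 and Mmp14 gave 0.71 and 0.02. Whether these differ between genotypes was not tested.

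Mmp2 and Col1a1 gave r = 0.64 (rho = 0.51, permutation test, adjusted p = 0.00767 for r and 0.0520 for rho), and 0.54 without the 2 farthest mice. Timp1 and Postn, the periostin of activated fibroblasts, gave r = 0.69 (rho = 0.62, permutation test, adjusted p = 0.00375 for r). Without WWP2Mut/Mut 33-1 and WT 43-3, the mice farthest from the median of Timp1, it was 0.49 (unadjusted permutation p = 0.0545). Leaving these mice out narrows the range of Timp1, so it cannot show whether the call depends on them. With any 1 mouse left out r lay between 0.61 and 0.78. Within genotypes r was 0.49 in WT and 0.85 in WWP2Mut/Mut mice. On TMM-normalised log2 CPM Timp1 and Postn gave r = 0.56 (permutation test, adjusted p = 0.0243), and Mmp2 and Col1a1 gave r = 0.67. Adam8, a leukocyte sheddase, and Ptprc, the pan-leukocyte CD45 gene, gave r = 0.61 (rho = 0.65, permutation test, adjusted p = 0.0135 for r). Their r was 0.07 in WT and 0.90 in WWP2Mut/Mut mice, a difference that was not tested. Adam12 and Postn (r = 0.17) and Mmp9 and the neutrophil gene S100a8 (r = -0.02) did not pass this test, with adjusted permutation p of 0.562 and 0.952. Adam12 and Postn gave between 0.01 and 0.51 with any 1 mouse left out. Mmp9 and S100a8 gave r = -0.81 in WT and 0.20 in WWP2Mut/Mut mice, a difference that was not tested. After adjusting the values for genotype, concentration and lane, Mmp2 and Mmp14 no longer passed (r = 0.40, permutation test, adjusted p = 0.154), and the other 5 pairs kept an adjusted p below 0.05. When the gene body coverage fraction was also removed, a choice made after the data were seen, Mmp2 correlated more closely with both Mmp14 (r = 0.85) and Timp2 (r = 0.73). Mmp14 and Timp2 went the other way, from r = 0.92 after the first adjustment to 0.79 with the fraction also removed.

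**Figure D5:**
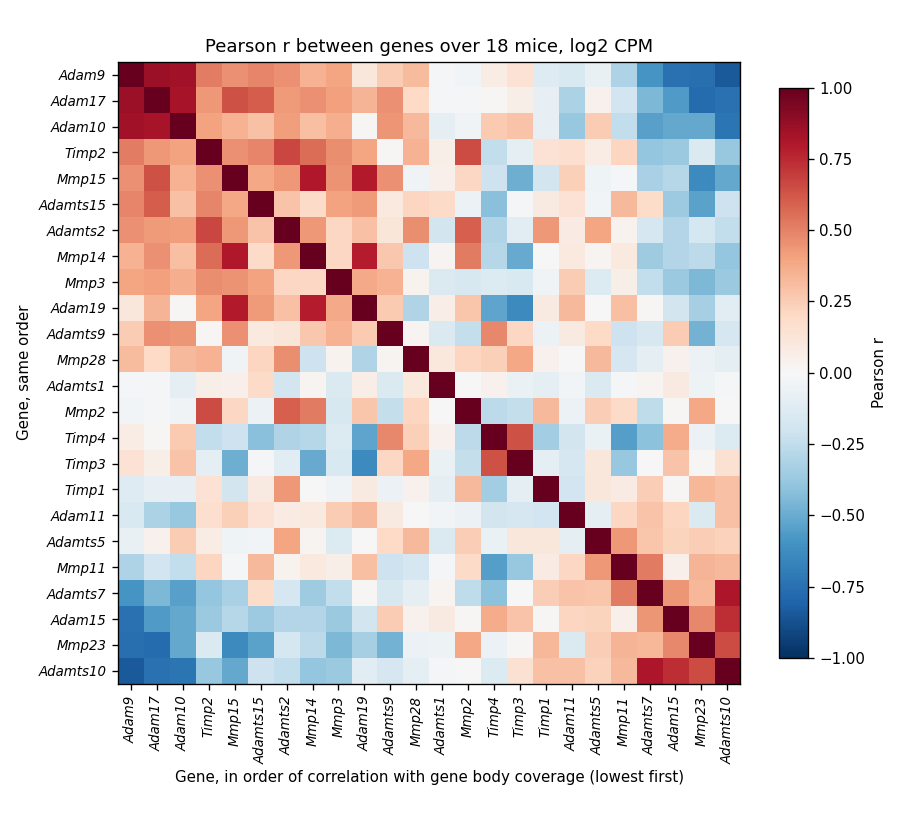
Pearson r between all pairs of the 24 genes at 1 TPM or more, on TMM-normalised log2 CPM over 18 mice (red positive, blue negative), with genes in order of their correlation with the gene body coverage fraction. Adam9, Adam10 and Adam17 form a red block at 1 end, and Adamts10, Mmp23, Adam15 and Adamts7, blue against that block, stand at the other.

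Correlations between the expressed genes are given as a description, without any test. Adam9, Adam10 and Adam17 correlated with each other at r between 0.82 and 0.86. Mmp14, Mmp15 and Adam19 did so at 0.79 to 0.80. Adamts10 correlated with Adamts7 at 0.81 and with Adam15 at 0.74, and Timp2 with Adamts2 at 0.67. Timp3 and Timp4 correlated at 0.63, and both were negative against Adam19 (-0.64 and -0.52). All libraries entered each of these values, so depth and RNA quality are shared by their points.

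Genes of matrix proteolysis outside these families were taken from a list of 62 genes: inhibitors and modulators, activators and partners, other matrix proteases, and substrates. Of the 61 tested, 0 passed an FDR of 0.05 in edgeR, 5 had an unadjusted p below 0.05 and were lower, and 1 was higher in WWP2Mut/Mut hearts, against 2.57% and 1.09% of all genes. The median log2 fold change was -0.13 for the 12 inhibitors and modulators, -0.09 for the 18 activators and partners, 0.04 for the 13 other proteases tested and -0.21 for the 18 substrates, of which 15 were negative (51.9% of all genes were). All 5 fibroblast markers had negative log2 fold changes (median -0.15). Their summed TPM overlapped, at 151 to 417 in WT and 154 to 319 in WWP2Mut/Mut hearts. Of the 5 activated fibroblast markers 4 were negative (median -0.13, summed TPM 74.6 to 174 and 66.9 to 155). None of these markers was called. Dcn, Lum and Col1a1 are both fibroblast markers and substrates, and Comp is both an activated fibroblast marker and a substrate. Fap, another activated fibroblast marker, is also one of the other proteases. The lists thus share values, and the part of these markers in the substrate values was not tested. The smallest p belonged to Hbegf, the heparin-binding EGF ligand released by Adam17, at 4.83 to 13.1 TPM in WT (median 7.36) and 2.90 to 8.54 in WWP2Mut/Mut hearts (median 4.60). Its log2 fold change was -0.42 ± 0.133 (SE, unadjusted p = 0.00587, 0.946 adjusted over all genes, edgeR). Plg, the liver-made precursor of plasmin, had 0.637 ± 0.705 TPM (SD, n = 9) in WT and 0.161 ± 0.164 TPM (SD, n = 9) in WWP2Mut/Mut hearts. Its log2 fold change was -2.37 ± 0.764 (SE), with an unadjusted edgeR p of 0.00615 and an exact permutation p of 0.0427 on TPM. Its values stand beside the liver genes given above, which were also higher in some WT libraries, and their part in it was not tested. Comp, a matrix protein cut by Adamts7, had 4.28 ± 4.60 TPM (SD, n = 9) and 1.25 ± 0.416 TPM (SD, n = 9), with WT values from 0.90 to 13.9 that overlapped nearly all of the WWP2Mut/Mut range of 0.85 to 2.26. Its log2 fold change was -0.97 ± 0.337 (SE), with an unadjusted edgeR p of 0.00980, 0.973 adjusted over all genes, and an exact permutation p of 0.0431 on TPM.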

How the data were processed

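Left ventricle RNA of 18 mice was sequenced as stranded libraries. The authors aligned reads to the mouse genome m38 (Ensembl 89) with STAR 2.5.2b, quantified genes with RSEM 1.2.31 and removed mitochondrial and rRNA genes. The deposited files hold the expected counts per gene, 5.11% of them not whole, and TPM from which the authors had removed those genes, with totals of 671770 to 826381 per library. A deposited sample table adds lane, RNA concentration and a gene body coverage fraction.

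Genes were named from GENCODE M21. Expected counts were rounded and tested with edgeR 4.0.16 (TMM, glmQLFit, glmQLFTest) in R 4.3.3 over genes whose counts summed to over 1 across libraries. Lane and RNA concentration (centred) were covariates, the terms of the study's DESeq2 model. P-values were adjusted by the Benjamini-Hochberg method. Alternatives were DESeq2 1.42.0, limma 3.58.1 on log2(TPM + 1) and log2(TPM + 0.1), other size factors, filters and covariates, and leaving out each mouse. TPM of single genes was compared with two-sided exact permutation tests, unadjusted, in Python 3.11.15 with scipy 1.17.1. The edgeR step was tested on simulated data.

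Genes described by name were the 4 Timp genes, the 15 other members with the highest mean TPM, the 6 with the smallest edgeR p, any called member and the highest of each role group, and outside the families Wwp2, the fixed pairs and up to 3 genes of the fixed lists. Mmp9, Mmp8, Mmp1b, Mmp10 and other members given as single values were added for their role. The members, lists and pairs were chosen with earlier results of these data known, and the gene body coverage comparison after the data were seen. The study's results text gives 8 mice per genotype and its methods 9, and all 18 deposited libraries were used. Intervals and the 0-count limit cover counting error or the spread between mice only.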

Additional observations from a re-analysis of the deposited data

Results flagged for a closer look

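In 54 sets of 9 mice (each genotype for Wwp2 and the named genes other than Adam1b), 5 sets held 1 mouse that stood apart from the other 8 by Dixon's criterion, and chance alone marks about 1 set in 20. Mouse WWP2Mut/Mut 52-1 had the highest value of its genotype in 3 of these 5. Its Adamts7 was 6.41 TPM against 2.32 to 4.13 in the other WWP2Mut/Mut mice, its Adam1a 1.66 against 0.19 to 0.78, and its Wwp2 3.00 against 1.19 to 1.90. In TMM-normalised CPM it was also highest, at 31.3 against 14.8 to 22.8 for Adamts7, 9.02 against 0.808 to 4.29 for Adam1a and 16.2 against 6.39 to 10.5 for Wwp2. Its gene body coverage fraction of 0.0526 was the highest of its genotype. Mouse WT 45-1 had 3.81 TPM of Adam11 against 0.95 to 2.13 in the other WT mice. Mouse WT 94-2 had 0.38 TPM of Adamts14 against 0.16 to 0.24.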

How the results depend on the processing

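The absence of called members held in every alternative, in all 18 fits that left out a mouse and in both fits with liver or atrial genes added. At an unadjusted p below 0.05 the number of lower members was 1, and became 2 without covariates, with lane alone, with RNA concentration alone, with gene body coverage added or with liver genes added, 0 with edgeR's filterByExpr (45 members), and 0 to 4 with a mouse left out. The number of higher members was 0, became 2 with liver genes added, and 0 to 1 with a mouse left out. Adding liver genes, chosen after the data were seen, moved Wwp2 to a log2 fold change of -1.27 (adjusted p = 0.0529). In the outside list the 5 lower genes became 3 without covariates or with lane alone, 8 with limma on log2(TPM + 0.1), and 2 to 11 with a mouse left out, while the 1 higher gene became 0 with limma on either scale, 2 with liver genes added, and 0 to 1 with a mouse left out. The median of the 4 Timp genes was -0.10 and became -0.02 without covariates or with lane alone, -0.18 to -0.03 with a mouse left out, and -0.33 with limma on log2(TPM + 0.1), where the median of all genes also moved to -0.11. The median of the Adamts genes, -0.13, lay between -0.19 and 0.07 with a mouse left out, and was positive (0.0699) without WWP2Mut/Mut 53-1. The TPM tests with p below 0.05 numbered 4, 3 with TPM rescaled to equal totals, and 2 to 5 with a mouse left out. Of the 9 gene pairs, 6 passed, and 4 to 8 did with a mouse left out. The causes were not tested. No paired analysis was possible because the genotypes share no replicate numbers. Genes averaging under 0.1 TPM, 35 of 78, were read with little precision, and 15 of them had 0 counts in every mouse. Whether depth limited them was not tested.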
